A study of Homo sapiens with 2 samples.

Results

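GPR17, LIMS2, ADGRL1, CD68, EIF4A1, SENP3, P4HB and PTPRN2 are the 8 genes at or next to the 5 strongest shared NUDT21 regions of the genome of J.gamma1 cells. These genes were chosen by the fold of the same peaks described here, out of 20033 protein-coding genes of GENCODE release 44. Their high folds are therefore a description and not a result. The data were 2 replicates of the J.gamma1 line, which is an established line of T-cell acute lymphoblastic leukemia (T-ALL). The labels name no treatment and no change of genotype, so the replicates make up a single group without a control group. CUT&Tag was done with an antibody against NUDT21, so each peak marks a stretch of chromatin where a tethered transposase cut more often than in the local background.

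NUDT21 is the small subunit of cleavage factor Im, a complex that binds UGUA in nascent RNA and helps to choose the polyadenylation site of a transcript. Cleavage and polyadenylation take place at the 3′ ends of genes while they are transcribed. CUT&Tag reports the DNA near the protein and not the RNA that it binds. The members have unrelated products. GPR17 encodes an orphan G protein-coupled receptor of oligodendrocyte precursors, and LIMS2 encodes a LIM-domain adaptor of focal adhesions. ADGRL1 encodes latrophilin, an adhesion receptor, and CD68 encodes a lysosomal glycoprotein of macrophages. EIF4A1 encodes the RNA helicase of the translation initiation complex, and SENP3 encodes a nucleolar SUMO protease. P4HB encodes protein disulfide isomerase of the endoplasmic reticulum, and PTPRN2 encodes a receptor-type phosphatase relative of neuroendocrine secretory granules.

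Replicate 1 held 92722 peaks and replicate 2 held 66671 peaks on chromosomes 1 to 22, X and Y, and 49497 shared regions held at least 1 peak of each list. Fold is the ratio of the signal at a peak's summit to the local control level, and its median was 3.95 in replicate 1 and 4.23 in replicate 2. Read totals are unknown. Replicate 1 came out 1.95 times as deep as replicate 2 when recovered from the folds and p-values, if 1 control library served both lists. Regions were ranked by the sum of their fold ranks in both lists. P4HB took the last place inside the rule with a rank sum of 25 and folds of 35.2 and 29.9. The next region lay on chromosome 19 (1272869 to 1282047, nearest start FAM174C) with a rank sum of 27 and folds of 35.0 and 29.9. After it came a region on chromosome 6 (26122982 to 26124707, nearest start H2BC4) with a rank sum of 29 and folds of 34.6 and 34.1.

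To show what lies under the strongest summits, the DNA was read from hg38. At PTPRN2 the summits of both replicates fell inside a tandem repeat. It filled 1206 bp (chr7:158523354-158524559), or 36.6% of the shared region, and could be cut at its CCCTG words into 63 units of either 20 bases (37 units) or 17 bases (26 units). The 63 units had 14 different sequences, of which the 4 most frequent are shown with CCCTG in capitals on the forward strand.
Unit with 13 copies: CCCTGgagtggagtctg
Unit with 12 copies: CCCTGgagtggagtcgtctg
Unit with 11 copies: CCCTGgagtggagtcgtcta
Unit with 8 copies: CCCTGgagcggagtctg

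The stretch of 101 bases around the replicate 1 summit (chr7:158524001-158524101, forward strand) shows a short unit among long ones, again with CCCTG in capitals.
PTPRN2 summit: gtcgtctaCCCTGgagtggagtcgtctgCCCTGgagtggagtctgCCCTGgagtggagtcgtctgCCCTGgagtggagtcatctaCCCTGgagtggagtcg

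The other summits lay in DNA without such a repeat. Their sequences are shown on the strand of the named gene, with matches to 5 words in capitals, on either strand. The words were TGTA (UGUA in RNA), the polyadenylation signal AATAAA, the CCAAT box, the GC box GGGCGG and the core of ETS factor sites, CCGGAA. The GPR17 stretch (chr2:127647518-127647618, forward strand) lies in an intron and holds none of the 5 words. The ADGRL1 stretch (chr19:14207259-14207359, reverse strand) lies upstream of the gene. The CD68 stretch (chr17:7579178-7579378, forward strand) lies between EIF4A1 and CD68 and holds TGTA at 3 places. The P4HB stretch (chr17:81860857-81860968, reverse strand) lies upstream of every annotated P4HB start.
GPR17: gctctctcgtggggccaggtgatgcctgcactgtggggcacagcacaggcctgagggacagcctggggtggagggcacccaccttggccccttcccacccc
ADGRL1: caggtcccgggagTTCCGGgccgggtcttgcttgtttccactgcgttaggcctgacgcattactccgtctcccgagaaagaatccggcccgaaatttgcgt
CD68: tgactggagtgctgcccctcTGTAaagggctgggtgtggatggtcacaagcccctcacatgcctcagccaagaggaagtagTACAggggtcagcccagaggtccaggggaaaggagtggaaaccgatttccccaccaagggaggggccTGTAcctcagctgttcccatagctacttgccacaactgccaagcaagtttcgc
P4HB: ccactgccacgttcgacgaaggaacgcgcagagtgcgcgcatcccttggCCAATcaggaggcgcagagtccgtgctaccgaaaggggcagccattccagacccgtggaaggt

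The PTPRN2 peak was the strongest of both lists. PTPRN2 (ENSG00000155093.20, reverse strand) spans chr7:157539056-158587823, and the peak lay in an intron, with its nearest annotated start, that of MIR595, 8762 bp from the replicate 1 summit. In replicate 1 the peak ran from 158523121 to 158526312 with a fold of 111, against 64.4 for the next strongest peak of that list. In replicate 2 it ran from 158523175 to 158526416 with a fold of 56.4, against 40.3 for the next. The 2 summits were 42 bp apart, and both edges differed by 104 bp or less between the lists.

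**Figure D1:**
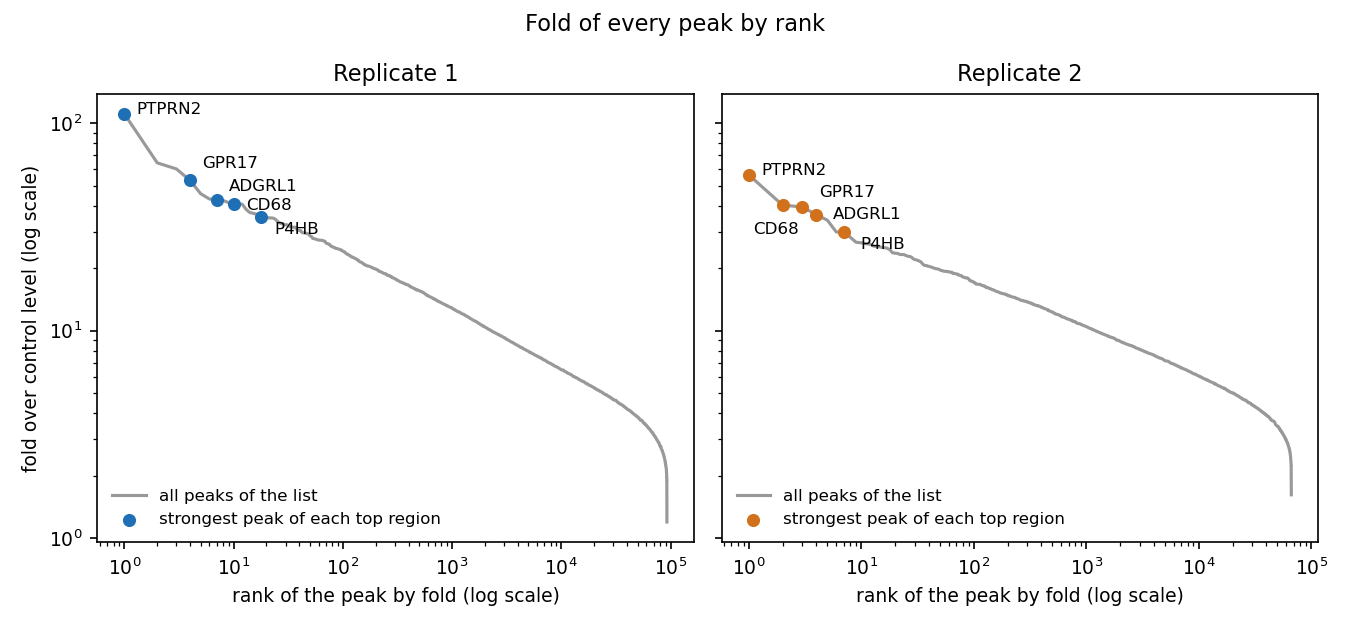
Fold over the control level of every peak (vertical axis, log scale) against its rank in its own list (horizontal axis, log scale), for replicate 1 on the left and replicate 2 on the right. Coloured points are the strongest peaks of the 5 regions that chose the members. PTPRN2 stands at rank 1 in both lists, and P4HB stands at rank 18 in replicate 1 and rank 7 in replicate 2.

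The number of fragments over each summit was recovered from the deposited fold and p. At PTPRN2 there were 2442 fragments in replicate 1 and 706 in replicate 2. The next highest summit of the lists had 998 and 523 fragments. The PTPRN2 ratio of 3.46 (95% exact interval 3.18 to 3.77, counting error only) was 1.78 times the depth ratio of the libraries. For comparison, 179 shared regions had at least 200 fragments over both lists together, with replicate 1 brought to the depth of replicate 2. Their median ratio was 2.01, and the range from the 5th to the 95th percentile was 1.56 to 5.41. The PTPRN2 ratio lay inside this spread, above 86.0% of these regions. The control level was also high there, at 19.3 in replicate 1, above 98.6% of the peaks of that list, and 20.7 in replicate 2, above 98.7%. These levels are in fragments of the control before scaling, and the replicate 2 fold was taken over the scaled level of 11.5.

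GPR17 had 364 fragments in replicate 1 and 185 in replicate 2, a ratio of 1.97 (95% exact interval 1.64 to 2.36). ADGRL1 had 324 and 136 fragments, a ratio of 2.38 (1.94 to 2.93). P4HB had 216 and 115 fragments, a ratio of 1.88 (1.49 to 2.38). The intervals of these 3 genes held the depth ratio of 1.95, though at ADGRL1 only just (lower bound 1.944 against 1.949). CD68 had 196 and 125 fragments, and its ratio of 1.57 (1.25 to 1.98) also held it. Each count was taken at the summit of its own list. The summits of the 2 lists lay 1356 bp apart at GPR17 and 215 bp apart at ADGRL1, so these ratios do not compare the same place. Unscaled control levels at these 4 summits were between 3.45 and 6.67 fragments, lower than at PTPRN2.

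Within its own gene the PTPRN2 peak stood alone. The gene held 102 peaks in replicate 1 and 45 in replicate 2, and 40 peaks of each list touched a peak of the other. The remaining 101 peaks of replicate 1 had a median fold of 3.25 and reached 7.39, and the remaining 44 peaks of replicate 2 had a median of 3.24 and reached 6.47. Peaks were denser in PTPRN2 than over the genome, at 9.73 against 3.0 per 100 kb in replicate 1 and 4.29 against 2.16 in replicate 2. They covered 8.60% and 3.55% of the gene, above 63.4% and 61.1% of protein-coding genes taken without flanks. The PTPRN2 start lay under a peak in replicate 1 (fold 5.61), and in replicate 2 the nearest summit was 947 bp upstream of it (fold 4.08). The 3′ end lay under no peak of either list.

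**Figure D2:**
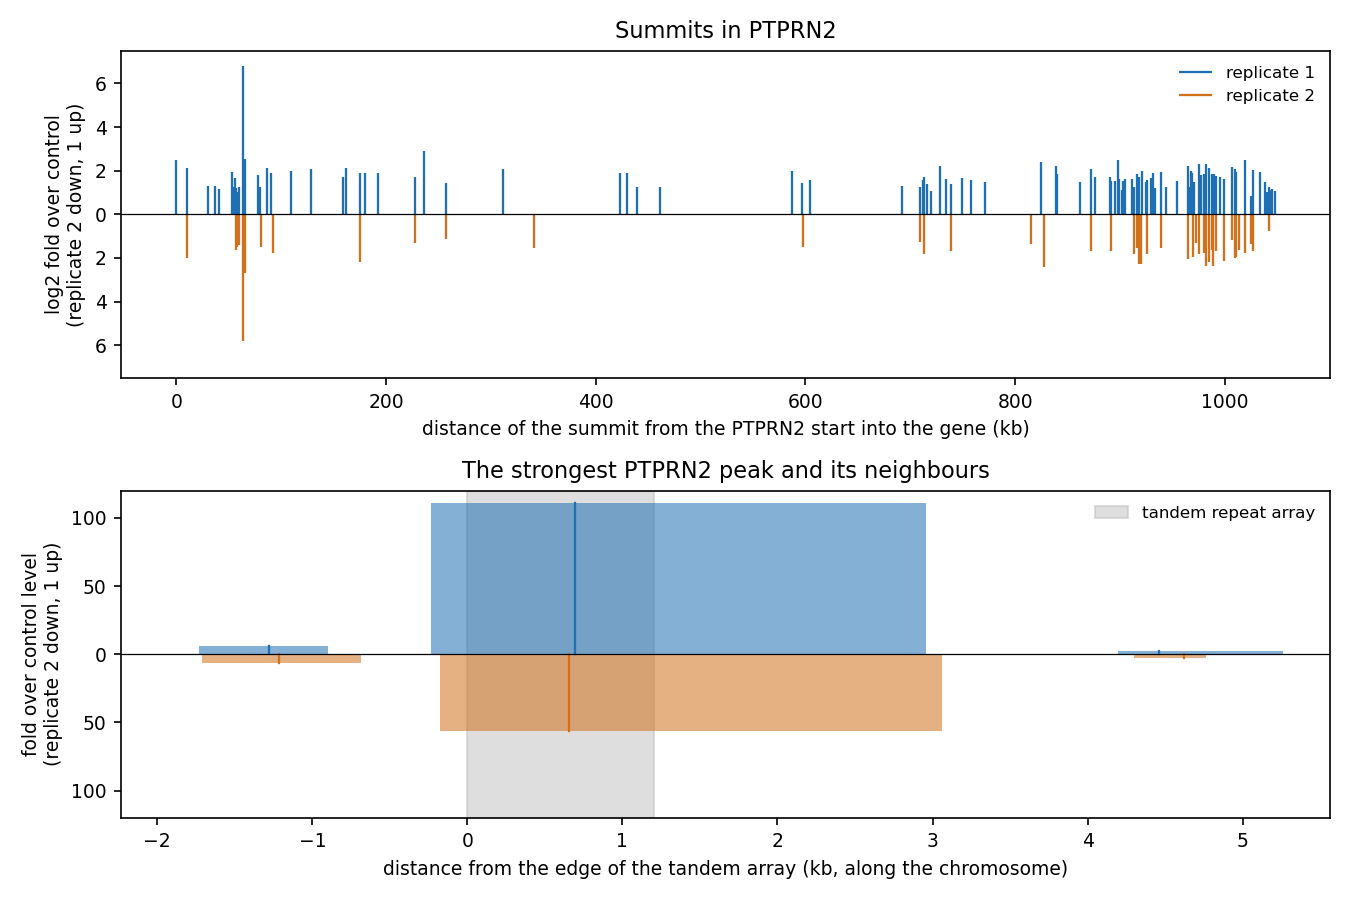
The upper panel shows the summits in PTPRN2 (horizontal axis, kb from the gene's start) with log2 fold upward for replicate 1 and downward for replicate 2. The lower panel shows the strongest peak and its neighbours, with boxes spanning each peak's extent up to the fold at its summit, a vertical line at each summit and grey shading over the 1206 bp tandem array. Both summits lie inside the array, and every other peak of the gene has a fold of 7.39 or less.

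Of the 20-base words of the PTPRN2 region, 32.8% occurred more than once inside it. The share was 3.67% at P4HB, 0.44% at ADGRL1, 0.41% at GPR17 and 0.40% at CD68. The repeat was local to PTPRN2: of its 3267 words of 30 bases, 0 were found anywhere else in the reference assembly on either strand. At ADGRL1, by contrast, 44.3% of the 30-base words had a copy elsewhere on the main chromosomes, and 18.0% of the 172 words within 100 bp of the replicate 1 summit did. The shares over whole regions were 15.8% at P4HB, 13.1% at CD68 and 3.30% at GPR17, and 0 of the 172 words at each of these 3 summits had a copy elsewhere. How reads from repeated DNA were placed was not tested.

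GPR17 lies inside LIMS2 on the opposite strand, and a peak of great length covered it. GPR17 (ENSG00000144230.17) spans chr2:127645864-127652639 on the forward strand and LIMS2 (ENSG00000072163.20) spans chr2:127638381-127681786 on the reverse strand. In replicate 1 a peak of 41176 bp ran from 127621290 to 127662465 with a fold of 53.0, and it was the 5th longest of its list. In replicate 2 a peak of 38652 bp ran from 127621308 to 127659959 with a fold of 39.5, and it was the longest of its list. For scale, median peak lengths were 630 bp and 649 bp, and 431 and 161 peaks reached 10 kb. The left edges of the 2 peaks were 18 bp apart.

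The GPR17 summits differed in place between the replicates. In replicate 1 the summit lay at 127647568, in an intron, 1415 bp into the gene from the canonical start. In replicate 2 it lay at 127646212, in a 5′ exon, 59 bp past that start. The 2 summits were 1356 bp apart, the widest gap among the 5 regions. Since the deposited fold belongs to the summit alone, the level along the rest of the 41176 bp is not known. The 2 long peaks covered all of GPR17, 55.5% and 49.7% of LIMS2, and the 3′ end of MYO7B, which encodes a myosin of the intestinal brush border. They also covered the lncRNA ENSG00000272789.

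The strongest peak over LIMS2 was the one it shares with GPR17, and the share of each gene in it cannot be told apart. The LIMS2 canonical start (127675530) lay under a peak from 127670715 to 127675941 in replicate 1. The fold of 7.76 of that peak belongs to a summit 1230 bp past the canonical start and 9 bp from another annotated LIMS2 start. In replicate 2 the canonical start lay under a short peak from 127675449 to 127675827 with a fold of 3.24. Another peak, from 127671527 to 127674830 with a fold of 8.12, lay just inside the gene. The summit of that peak was 588 bp from the nearest annotated LIMS2 start. The farthest annotated LIMS2 start (127681786) lay under no peak of either list. The 3′ end of LIMS2 lay under the GPR17 peak in both lists, 9142 bp and 7786 bp from the summits.

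**Figure D3:**
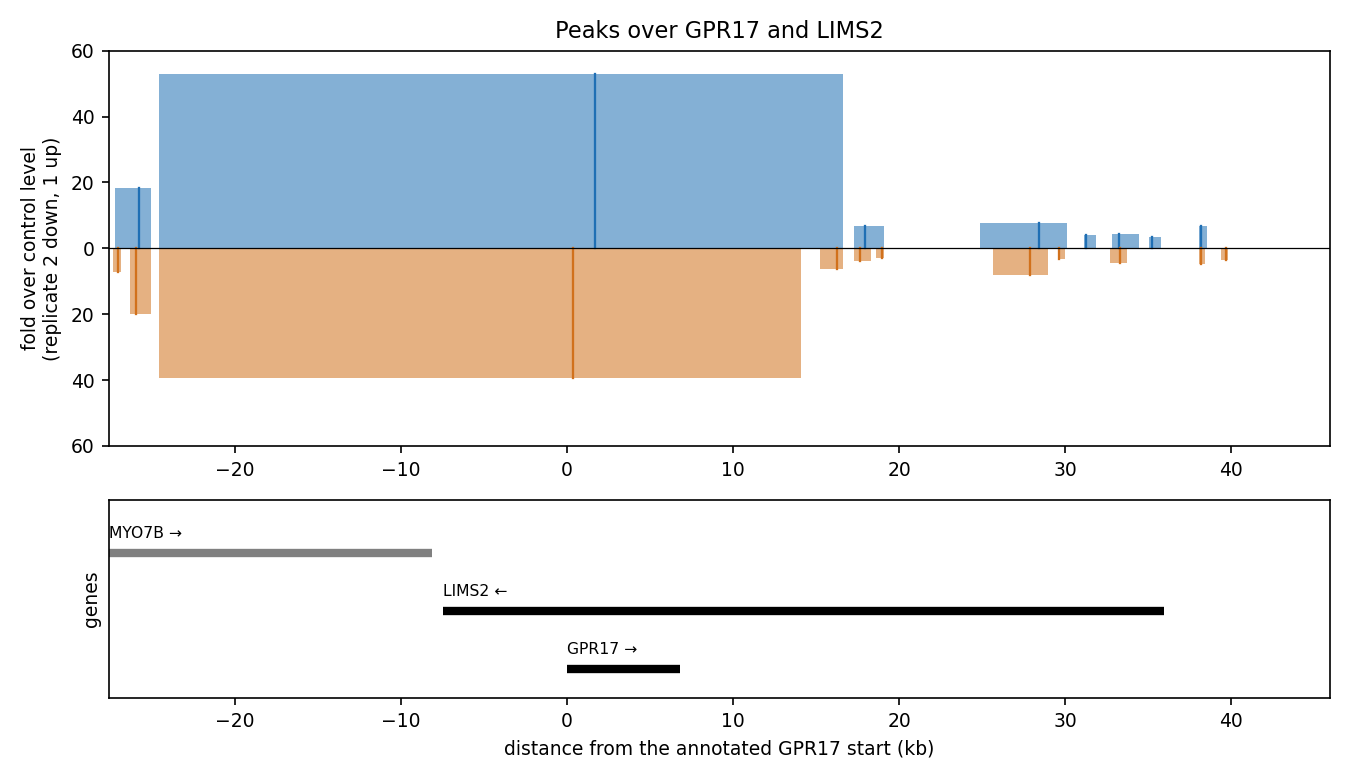
Peaks of both lists around GPR17 and LIMS2 (horizontal axis, kb from the annotated GPR17 start), with boxes spanning each peak's extent up to the fold at its summit, upward for replicate 1 and downward for replicate 2, and a vertical line at each summit. Gene bodies are drawn below, members in black, with arrows for their direction. The long peak covers GPR17 and the 3′ part of LIMS2 in both replicates. The peak over the canonical LIMS2 start has a fold of 7.76 in replicate 1 and 3.24 in replicate 2. A replicate 2 peak with a fold of 8.12 lies just inside the gene.

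SENP3, EIF4A1 and CD68 follow each other on the forward strand of chromosome 17, and the strongest peak of this cluster lay between EIF4A1 and CD68. EIF4A1 (ENSG00000161960.16) spans chr17:7572824-7579006 and CD68 (ENSG00000129226.14) spans chr17:7579491-7582111. In replicate 1 the peak ran from 7575959 to 7584935 with a fold of 40.8 and its summit at 7579278. In replicate 2 it ran from 7576543 to 7584916 with a fold of 40.3 and its summit at 7579272. The 2 summits were 6 bp apart. They lay 272 bp and 266 bp past the 3′ end of EIF4A1, and 213 bp and 219 bp before the nearest annotated CD68 start, so that the same peak sits at the end of one gene and the start of the next. An exon of the lncRNA ENSG00000264772 holds both summits.

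The CD68 peak covered all of CD68 and the lncRNA ENSG00000233223, the 3′ part of EIF4A1, and the start of MPDU1, which is needed for the use of dolichol-linked sugars in glycosylation. The readthrough gene SENP3-EIF4A1 runs under the same peaks, and its share cannot be told apart from those of its parents. EIF4A1 had a separate peak at its start, with a fold of 21.4 in replicate 1 (7572034 to 7574767) and 16.5 in replicate 2 (7572022 to 7574372). The summits lay 175 bp and 148 bp upstream of the canonical start. SENP3 (ENSG00000161956.14, chr17:7561919-7571969) had a weaker peak at its start, with folds of 9.22 and 5.50, and both summits lay at 7561838, 81 bp upstream. Its 3′ end lay under no peak of either list.

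**Figure D4:**
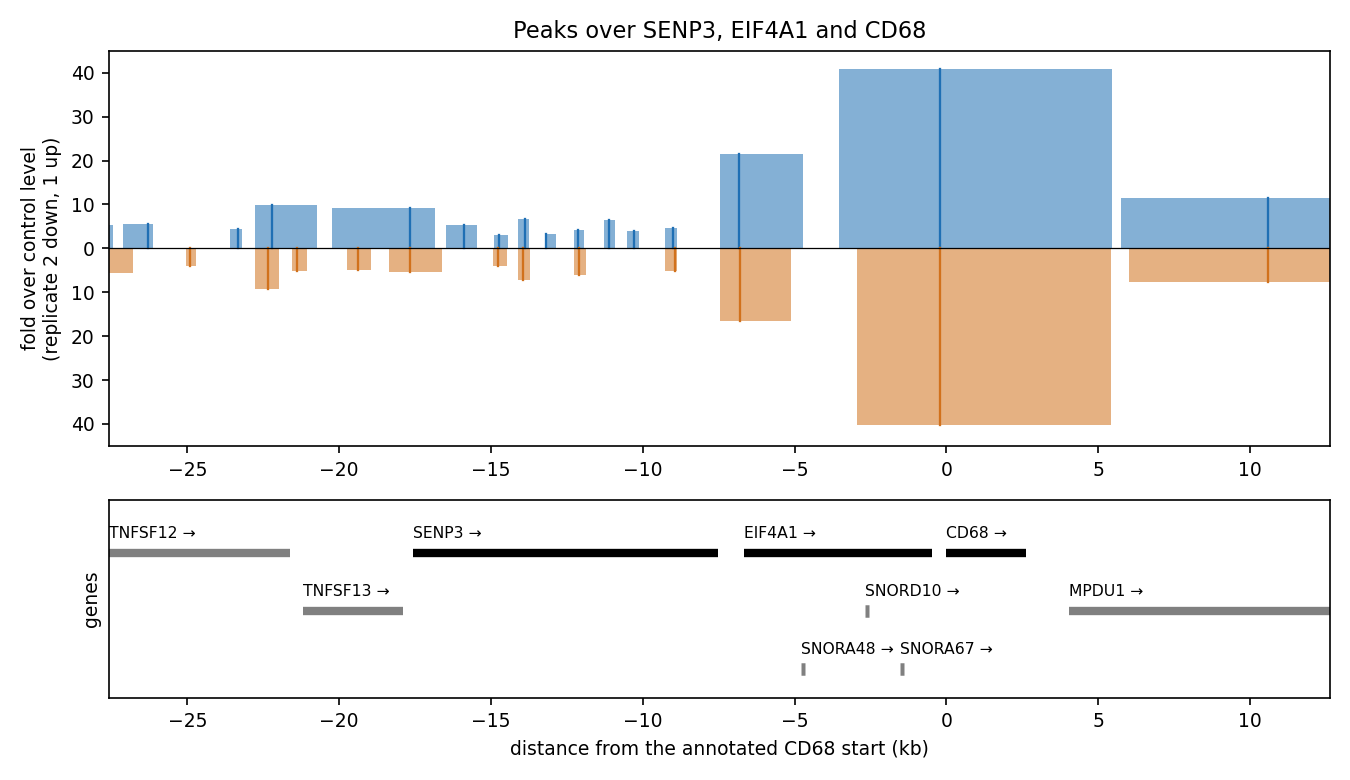
Peaks of both lists from SENP3 to CD68 (horizontal axis, kb from the annotated CD68 start), with boxes spanning each peak's extent up to the fold at its summit, upward for replicate 1 and downward for replicate 2, and a vertical line at each summit. Gene bodies and snoRNA genes are drawn below, members in black. Folds at the starts rise from SENP3 (9.22 and 5.50) over EIF4A1 (21.4 and 16.5) to the peak before CD68 (40.8 and 40.3).

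EIF4A1 introns host snoRNA genes, which guide the chemical modification of other RNAs. SNORD10 (7576811 to 7576952), a C/D box snoRNA gene, and SNORA67 (7577955 to 7578091), an H/ACA box snoRNA gene, lay wholly under the CD68 peak in both lists. Neither was at a summit: SNORD10 lay 2326 bp and 2320 bp from it and SNORA67 1187 bp and 1181 bp. SNORA48 (7574713 to 7574847) was touched over 40.7% of its length by the EIF4A1 start peak in replicate 1, and in replicate 2 that peak ended 341 bp before it.

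The windows of the 8 genes held 6 small RNA genes in all, and the 2 named above were touched in both lists, where 7.84% of 7030 small RNA genes of the genome were. MIR153-2, in an intron of PTPRN2, lay under a peak with a fold of 3.07 in replicate 2, with the nearest peak of replicate 1 at 2169 bp. MIR595, also in PTPRN2, lay 723 bp and 1025 bp from the nearest peaks. RN7SL231P, a pseudogene of the signal recognition particle RNA upstream of ADGRL1, lay under a peak with a fold of 5.32 in replicate 1, and the nearest peak of replicate 2 was 2054 bp away.

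The ADGRL1 peak lay upstream of the gene and was split in replicate 2. ADGRL1 (ENSG00000072071.17, reverse strand) spans chr19:14147743-14206187. In replicate 1 a peak of 9295 bp ran from 14201828 to 14211122 with a fold of 42.8 and covered the canonical start, with its summit 1140 bp upstream of that start. In replicate 2 the same stretch held 3 peaks, with folds of 11.2 (14201745 to 14205251), 36.2 (14206800 to 14208069) and 8.56 (14208587 to 14210998). The canonical start, at 14206169, lay in the gap between the gene-side peak and the strongest one. The strongest summit of replicate 2 lay 1355 bp upstream of the start and 215 bp from that of replicate 1.

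Along the rest of ADGRL1, peaks were weaker but frequent. The window from 10 kb before to 10 kb past the gene held 25 peaks in replicate 1 and 20 in replicate 2, and 20 of each list touched a peak of the other. They covered 63.9% and 51.1% of the window, where the median over the same windows of all protein-coding genes was 3.21% and 1.69%. A peak near the 3′ end had its summit in a UTR exon 606 bp (fold 8.42) and 754 bp (fold 10.1) inside the gene, and the 3′ end itself lay under no peak. The antisense lncRNA ADGRL1-AS1 overlaps this end, and peaks there cannot be told apart by gene. At the far edge of the window a peak with folds of 19.4 and 12.6 covered the start of ADGRL1-AS1 in both lists. The start nearest to its summits was that of ASF1B, which encodes a histone chaperone, at 240 bp and 168 bp. The share of each gene in this peak cannot be told apart.

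P4HB carried its strongest peak at the start, with the same summit in both lists. P4HB (ENSG00000185624.16, reverse strand) spans chr17:81843159-81860856. The peak ran from 81857962 to 81862346 with a fold of 35.2 in replicate 1 and from 81858016 to 81862776 with a fold of 29.9 in replicate 2, and both summits lay at 81860868. That is 12 bp upstream of the farthest annotated start and 333 bp upstream of the canonical start (81860535). P4HB was also under strong peaks at its other end. The canonical 3′ end lay under peaks with folds of 15.4 (81831504 to 81849747) and 15.5 (81840419 to 81849374), whose summits were 1502 bp and 1718 bp past it in intergenic DNA. Both peaks also covered the lncRNA ENSG00000262831, and that of replicate 1 covered PPP1R27 and the start of MCRIP1. In replicate 2 PPP1R27 and the start of MCRIP1 lay under a separate peak (81831504 to 81836644, fold 7.76). The share of each gene in these peaks cannot be told apart.

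P4HB had 5 peaks in its window in replicate 1 and 8 in replicate 2, and all of them touched a peak of the other list. They covered 91.6% and 86.3% of the window, above 99.1% and 99.4% of protein-coding genes. This coverage is not that of P4HB alone. Upstream of it, peaks with folds of 14.5 and 12.1 lay over ARHGDIA and the lncRNA ENSG00000262413. Inside the gene the folds were lower, at 8.12 and 5.68 for the peak over a coding exon and 6.86 and 7.38 for the intronic peak next to it.

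**Figure D5:**
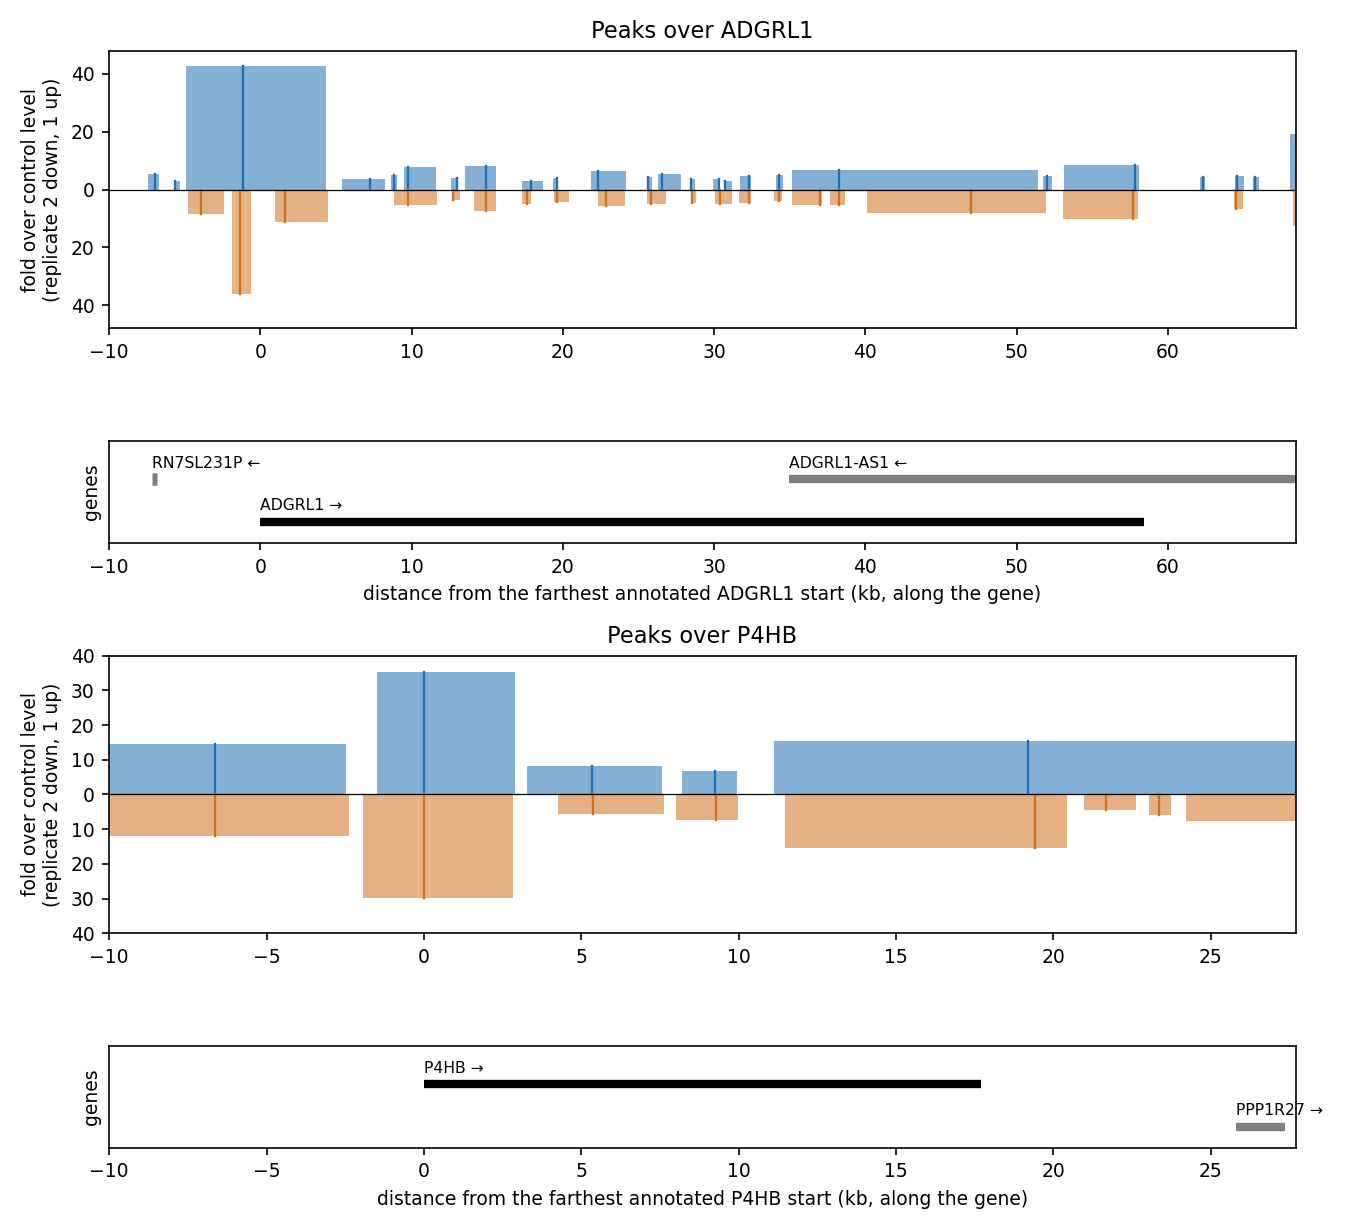
Peaks of both lists over ADGRL1 (upper panels) and P4HB (lower panels), drawn along each gene (horizontal axis, kb from the farthest annotated start), with boxes spanning each peak's extent up to the fold at its summit, upward for replicate 1 and downward for replicate 2, and a vertical line at each summit. Gene bodies are drawn below, members in black. At ADGRL1 1 peak of replicate 1 faces 3 peaks of replicate 2, and at P4HB the strongest summit is at the same base in both lists.

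Over the windows of all 8 genes, with overlapping windows counted once, replicate 1 had 155 peaks and replicate 2 had 95, a mean of 125 ± 42.4 (SD, n = 2). The ratio of the counts was 1.63, against 1.39 for the whole lists. A peak of the other list was touched by 52.3% of those from replicate 1 and by 92.6% of those from replicate 2, where the whole lists gave 56.4% and 85.7%. Peaks found in 1 list only had a median fold of 3.27 in replicate 1 and 3.41 in replicate 2. A fold of 10 or more was reached by 10 of the 155 and 11 of the 95 peaks, against 2.45% and 1.81% of the whole lists. The windows were chosen by the fold of these peaks, so nothing is read from that excess. Most summits lay in introns, 129 of 155 and 66 of 95, and PTPRN2 alone held 102 and 45 of the peaks.

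Coverage of the windows was highest at GPR17, at 99.4% and 95.2%, and lowest at PTPRN2, where only the gene was taken. LIMS2 had 70.5% and 63.0%, CD68 83.9% and 78.4%, EIF4A1 73.3% and 60.8%, and SENP3 64.6% and 47.8%. The windows of SENP3, EIF4A1 and CD68 overlap, as do those of GPR17 and LIMS2, so these are not separate values. Of the 32 other genes in the windows, 20 were touched by a peak of both lists and 17 had their start under one, where 29.5% and 15.6% of the 62663 annotated genes of any type did. These neighbours lie around peaks chosen for their fold, so nothing is read from the counts.

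A peak lay within 3000 bp of an annotated start in both lists for 8 of 8 genes, where 57% of protein-coding genes had one. The canonical start lay under a peak in both lists for 6 of 8 genes, against 33.9% of protein-coding genes. The exceptions were ADGRL1 and PTPRN2, each with its start under a peak of replicate 1 only. The canonical 3′ end lay under a peak in both lists for 5 of 8 genes (GPR17, LIMS2, CD68, EIF4A1 and P4HB), against 10.4% of protein-coding genes. Since the genes were chosen by these peaks, nothing is read from the 3 counts. At GPR17, LIMS2, CD68 and EIF4A1 it was the strong peak itself that reached the 3′ end, and P4HB had another peak there.

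To see how the families of these genes fared, 23 relatives were looked up. A promoter peak in both lists was found for 13 of them, or 56.5%, close to the 57% of all protein-coding genes. The canonical start lay under a peak in both lists for 8 of 23, or 34.8%, and the 3′ end for 0 of 23. The receptors nearest to GPR17 had no promoter peak in either list, which held for CYSLTR1, CYSLTR2, P2RY12 and GPR34. The same was true of the latrophilins ADGRL2 and ADGRL3 and of ADGRL4. LIMS1, the other PINCH adaptor, had folds of 10.98 and 10.2.

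The remaining families had peaks of moderate height. Each fold given is the highest over all annotated starts of the gene in that list. The values of the 2 lists can therefore belong to different starts. Among the LAMP proteins of the lysosomal membrane, folds were 6.47 and 6.95 at LAMP1 and 3.96 and 4.40 at LAMP2, and LAMP3 had a peak in replicate 1 only (2.77). The helicases EIF4A2 and EIF4A3 had folds of 5.76 and 5.13 and of 12.5 and 8.67. The EIF4A3 values belong to summits 686 bp and 644 bp past its canonical 3′ end. The summits nearest to its canonical start had folds of 11.1 and 6.68. Of the SUMO proteases, SENP1 (6.47 and 5.31), SENP2 (4.43 and 4.23), SENP5 (6.47 and 5.99) and SENP8 (9.87 and 6.15) had a peak in both lists, SENP6 in replicate 1 only (2.08), and SENP7 in neither.

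The disulfide isomerases PDIA3 (5.77 and 5.66), PDIA4 (6.37 and 3.94) and PDIA6 (4.38 and 5.43) had promoter peaks in both lists, as did PTPRN (5.74 and 4.48). At PDIA6 the values belong to different starts. The canonical start lay under the replicate 1 peak, and the nearest summit of replicate 2 was 16021 bp from it. The PTPRN values belong to summits 1037 bp and 6521 bp from its canonical start. The highest promoter folds of PTPRN2 were 5.61 and 4.16, at different starts, and its strong peak is intronic. The value of replicate 1 was at the canonical start, where the nearest peak of replicate 2 had a fold of 4.08. That of replicate 2 was near an internal start (157622431 to 157622889), where replicate 1 had a fold of 4.62.

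GC content around the strong summits lay on both sides of the median of other regions. The CpG ratio was well above its median at some summits and well below it at others. Within 100 bp of the replicate 1 summit the GC content was 62.7% at PTPRN2, 66.2% at GPR17, 63.2% at ADGRL1, 57.7% at CD68 and 58.7% at P4HB, where the median of all shared regions was 60.7%. CpG was dense at P4HB and ADGRL1 in both lists. The ratio of observed to expected CpG at P4HB was 0.93 at the summit that both lists share, and at ADGRL1 it was 0.82 at the replicate 1 summit and 0.89 at that of replicate 2, against a median of 0.32 in each list. CD68 had low values of 0.12 and 0.06. The values depended on the summit at GPR17, where they were 0.09 and 0.37, and less so at PTPRN2, where they were 0.26 and 0.36.

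TGTA, the DNA form of the UGUA that cleavage factor Im binds in RNA, was searched on both strands within 100 bp of the replicate 1 summit. It was present at 1 of the 5 regions, where 46.9% of shared regions had it. That region was CD68, which held it 3 times, and 6.36% of shared regions held it 3 times or more. CCAAT was present at 1 of the 5, against 14.7% of shared regions. This was P4HB, which held it 3 times, all on the gene's own strand, where 0.40% of shared regions held it at least 3 times. The word lay 30 bp, 47 bp and 69 bp from the shared summit, and the copy at 47 bp is the one in capitals above. Of the other words, CCGGAA was found once, at ADGRL1. At the replicate 2 summits, TGTA was found at CD68 and once at ADGRL1, AATAAA once at ADGRL1 and GGGCGG once at GPR17, CCGGAA was absent, and CCAAT was found at P4HB as before. A match is only a match of letters in the window.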

How the data were processed

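CUT&Tag with an antibody against NUDT21 was done on 2 independent biological replicates of J.gamma1 cells. The authors processed reads with fastp, aligned them to hg38 with Bowtie2 2.2.5, removed duplicates with Picard and called peaks in each replicate with MACS3 3.0.1. A control library is not given in the sources used here. For each peak the deposited lists give the fold (a ratio at the summit over the local control level), the −log10 p, the −log10 q and the summit. The deposited score was not used.

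Fragments and control level at a summit were solved from the values the authors deposited, the fold and the −log10 p. In MACS the fold is (pileup + 1)/(control level + 1), and p is a Poisson tail, with the deeper library scaled down. The pileup of replicate 1 was scaled by 0.921 and the control of replicate 2 by 0.557, and fragments and control levels are given before scaling. A whole number of fragments gave p within a relative 0.001 for 99.995% of the replicate 1 peaks and for 100% of the replicate 2 peaks. The code was tested on simulated data. No read totals were used, and intervals cover counting error only.

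Annotation was GENCODE release 44 on hg38. Windows ran from 10 kb before to 10 kb past each gene, and for PTPRN2 over the gene only. A promoter peak covered an annotated start or had an edge within 3000 bp of it, and a gene's promoter fold was the highest over all its starts. Ends were those of the canonical transcript. Shared regions were merged intervals with a peak of each list. Members, relatives and named genes were chosen with earlier results of these data known, so no test was run, and counts of called genes or regions are set beside the share over all features. Named were the 8 members, genes under the 5 regions, small RNA genes in the windows, the relatives and the next 2 regions. ASF1B and the neighbours of P4HB were named after their values were seen. Python 3.11.15, numpy 2.4.6, pandas 2.3.3, scipy 1.17.1 and pysam 0.24.0 were used. Alternatives changed the windows, the promoter distance, the peak thresholds, the ranking, the word length and the replicate.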

Additional observations from a re-analysis of the deposited data

How the results depend on the processing

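Of 32 alternatives over 7 results, 22 left the value within the set limit (1.5 times for a count). The choice of the 5 regions depended on the measure used to rank them. By −log10 p, 3 of the 5 stayed among the top 5, and by recovered fragments 1 stayed, PTPRN2. GPR17 was then at place 15, ADGRL1 at 35, P4HB at 101 and CD68 at 117. Ranked in 1 list alone, 2 of the 5 stayed in replicate 1 (without replicate 2) and 4 in replicate 2 (without replicate 1). Restricted to the 10000 peaks per list that had the highest −log10 p, 5 relatives and 7 members kept a promoter peak in both lists. Among small RNA genes, 0 had a summit within 200 bp in both lists, and counts in 1 list alone were 3 (without replicate 1) and 4 (without replicate 2). The median share of repeated words over the 5 regions was 0.44% with 20 bases, 5.16% with 12 bases, 0.029% with 36 bases and 0 within 1000 bp of the summit, and the share at PTPRN2 was 32.8%, 35.4%, 23.6% and 54.2%. At the replicate 2 summit, 2 of the 5 regions held TGTA. No paired analysis was possible because there was only 1 group. The cause of these changes was not tested. With read totals unknown, a member peak listed in replicate 1 only cannot be told apart from one below the depth of replicate 2.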
